A study of Homo sapiens with 4 samples.

Results

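The genes described here are the MYC, MAX and MXD network: MYC, MAX, MXD1, MXD3, MXD4, MXI1, MNT, MGA, MLX and MLXIP. They were taken by name from the gene table of the study, and all 10 were found among its 41507 genes, with 43 of the 67765 rows of the transcript table. The study sequenced mRNA of SU-DHL-5 and Toledo, which are established cell lines of diffuse large B-cell lymphoma (DLBCL). Cells of each line received DMSO, the vehicle, or JQ1 at 1 µM, a small molecule that blocks the acetyl-lysine pockets of the BET bromodomain proteins. The labels give 6 h of treatment for every sample, whereas the study's own legend gives a longer time. All 4 samples shared the same medium, and the labels name no engineered allele. Each condition had 1 sample, sequenced as 2 libraries, and nothing in the sources says what separates the libraries of a sample. They were therefore averaged and counted as 1 replicate (n = 1), so a ratio within a line has no test. A test across samples was possible only for JQ1 against DMSO over both lines together, with the samples paired by line (limma, 4 samples, 1 residual degree of freedom), and it takes the lines as replicates.

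Values are RPKM, reads scaled to exon length and library size. Levels can then be compared between genes, but they depend on the exon length used, and gene and transcript values can differ. Library sizes ran from 14617583 to 17679831 mapped reads. A log2 ratio was taken as log2((a + 0.1)/(b + 0.1)) of the mean RPKM of the samples compared. The bracketed interval that follows a ratio is a 95% exact binomial interval of the reads, which covers counting error only. The interval of a difference between the responses of the lines is a 95% normal approximation from the reads of the 4 samples. It has the same limit. A gene was called higher or lower when its mean was at least 1 RPKM, its ratio was at least 1.5-fold (0.585 on the log2 scale) and both libraries of one sample lay above both libraries of the other. The labelled cell type fitted the B cell markers MS4A1, CD79A, CD79B, PAX5 and CD22, all 5 of which reached 1 RPKM in all 8 libraries. Their summed level ran from 620 to 969 RPKM over the SU-DHL-5 libraries and from 595 to 904 RPKM over the Toledo libraries. None of the T cell, myeloid, epithelial, fibroblast or erythroid markers reached 1 RPKM in every library, and each of those lists summed to at most 2.72 RPKM in any library. In such bulk samples, fewer cells with a transcript and less transcript per cell cannot be told apart.

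MYC is a transcription factor that drives growth, ribosome production and the cell cycle, and its gene is often deregulated in DLBCL. MYC binds DNA at E-box sequences only as a pair with MAX. MXD1, MXD3, MXD4, MXI1 and MNT pair with the same MAX and bring corepressors to the same sites, and MGA pairs with MAX inside a repressive Polycomb complex. MLX is a partner of its own for some MXD proteins, for MNT and for MLXIP (MondoA), a sensor of glucose phosphates. The balance of these pairs is regarded as a setting of cell growth, and the MXD proteins are best known from cells that leave the cell cycle.

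The sequence upstream of the start is shown for the called genes and for the member with the lowest JQ1 ratio in each line. The core E-box CACGTG is the element these proteins themselves bind. MXD3, MAX and MGA had no match to it and are not shown. RefSeq windows on GRCh38.p14 were used for 9 of the 10 genes (that of MYC was not analysed here), reaching back 250 bases from an annotated start. For MXD1, MXD4, MLXIP and MLX, bases inside the deposited gene were left off, and the windows held 182 to 250 bases. The windows of MAX, and those at the later starts of MXI1 and MGA, lie inside the deposited gene. They are written 5′ to 3′ along the gene's strand, with CACGTG in capitals. MXD4, which rose in both lines, holds 1 such E-box, 238 bases before its RefSeq start, in chr4:2262144-2262359 on the minus strand. MNT holds 1 in chr17:2401061-2401310 on the minus strand, and MLX, the member with the lowest ratio in Toledo under JQ1, holds 1 in chr17:42566850-42567059 on the plus strand, 50 bases before its RefSeq start. MXD1 (chr2:69914859-69915040) and MLXIP (chr12:122078506-122078745), both on the plus strand, rose without a match in their windows. MXI1 is shown at the starts of its major transcripts, chr10:110207355-110207604 and chr10:110225746-110225995 on the plus strand, neither of which has a match.
MXD4: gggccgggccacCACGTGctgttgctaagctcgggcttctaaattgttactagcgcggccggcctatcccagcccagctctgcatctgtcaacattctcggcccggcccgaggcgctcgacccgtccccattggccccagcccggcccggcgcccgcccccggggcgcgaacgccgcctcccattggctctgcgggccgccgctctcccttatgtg
MXD1: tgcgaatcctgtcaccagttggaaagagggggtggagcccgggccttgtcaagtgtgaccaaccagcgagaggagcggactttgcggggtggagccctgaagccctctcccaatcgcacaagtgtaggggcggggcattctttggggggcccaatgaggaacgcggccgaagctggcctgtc
MLXIP: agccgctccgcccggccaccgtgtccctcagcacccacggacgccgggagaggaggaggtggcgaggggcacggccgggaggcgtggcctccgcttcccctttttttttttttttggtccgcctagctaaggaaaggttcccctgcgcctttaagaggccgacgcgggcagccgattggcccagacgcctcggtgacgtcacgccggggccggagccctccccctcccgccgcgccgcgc
MLX: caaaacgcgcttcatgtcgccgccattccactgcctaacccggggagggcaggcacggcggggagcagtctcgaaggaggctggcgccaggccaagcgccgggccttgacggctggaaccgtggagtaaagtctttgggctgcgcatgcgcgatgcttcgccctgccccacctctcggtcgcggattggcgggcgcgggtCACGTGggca
MNT: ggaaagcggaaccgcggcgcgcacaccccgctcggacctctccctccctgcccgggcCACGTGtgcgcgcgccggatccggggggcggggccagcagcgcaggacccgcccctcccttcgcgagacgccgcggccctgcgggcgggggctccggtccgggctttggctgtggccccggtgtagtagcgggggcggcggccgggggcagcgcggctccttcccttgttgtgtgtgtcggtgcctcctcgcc
MXI1 upstream start: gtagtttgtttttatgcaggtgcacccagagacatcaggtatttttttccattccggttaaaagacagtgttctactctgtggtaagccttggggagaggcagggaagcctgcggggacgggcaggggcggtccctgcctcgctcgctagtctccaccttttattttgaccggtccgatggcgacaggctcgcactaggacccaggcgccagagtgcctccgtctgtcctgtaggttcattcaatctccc
MXI1 downstream start: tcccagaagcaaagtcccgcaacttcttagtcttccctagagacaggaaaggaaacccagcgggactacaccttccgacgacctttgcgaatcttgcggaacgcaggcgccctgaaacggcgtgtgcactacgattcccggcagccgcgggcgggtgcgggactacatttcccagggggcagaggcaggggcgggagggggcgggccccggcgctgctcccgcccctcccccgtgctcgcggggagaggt

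The motif CACGTG reads the same on both strands. It was present in 3 of the 14 windows, from 3 of the 9 genes, and in 6.34% of 35116 RefSeq windows of 250 bases. The CCAAT motif (ATTGG on the other strand) was present in 6 of the 14 windows, from 6 genes, and in 32.0% of all windows. The GC box GGGCGG, searched on both strands, was present in 10 of the 14 windows, from 8 genes, and in 42.6% of all windows. A match describes the letters of the window and not binding. MXI1, MAX and MGA had more than 1 window each, some of them inside the deposited gene.

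Under JQ1, MXD4 and MXD1 rose in both lines and MLXIP rose in Toledo, while none of the 10 genes was called lower in either line. In SU-DHL-5, 2 of the 10 genes were called higher, where 8.72% of 9094 genes were called higher and 12.1% lower. In Toledo, 3 of the 10 were called higher, where 6.68% of 9380 genes were called higher and 15.8% lower. The median log2 ratio of the 10 genes was 0.14 in SU-DHL-5 against 0.02 for all genes, and 0.12 in Toledo against -0.06 for all genes. All 10 genes passed the filter of 1 RPKM in every comparison. Libraries apart were common: in SU-DHL-5, JQ1 lay above for 42.3% of all genes and below for 38.0%, against 5 and 4 members. In Toledo it lay above for 29.7% and below for 42.9%, against 4 and 1 members. From library 2 of each sample alone, the Toledo genes past 1.5-fold were MXD4 and MXD3, and MXD1 and MLXIP were under it.

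Over both lines, paired by line, MXD4 and MXD1 passed limma's test at an adjusted p under 0.05 over 9521 genes, of which 9.98% passed higher and 16.3% lower. MXD4 was higher in JQ1 by 1.02 ± 0.16 (SE) on the log2 scale (limma adjusted p = 0.0017), in 2 of 2 lines. MXD1 was higher by 0.74 ± 0.22 (SE), with a limma adjusted p of 0.033, also in both lines. MLXIP at 0.46 ± 0.17 and MXD3 at 0.38 ± 0.15 missed the threshold, with limma adjusted p-values of 0.075 and 0.088. The other 6 genes lay between -0.20 for MLX and 0.094 for MXI1, with limma adjusted p-values from 0.26 to 0.87. The interval for MYC ran from -0.40 to 0.14 around -0.13. The spread of a gene rests here on 1 degree of freedom and on what limma borrows from the other genes, and without the pairing no gene passed, with 91 higher and 205 lower at an unadjusted p under 0.05.

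**Figure D1:**
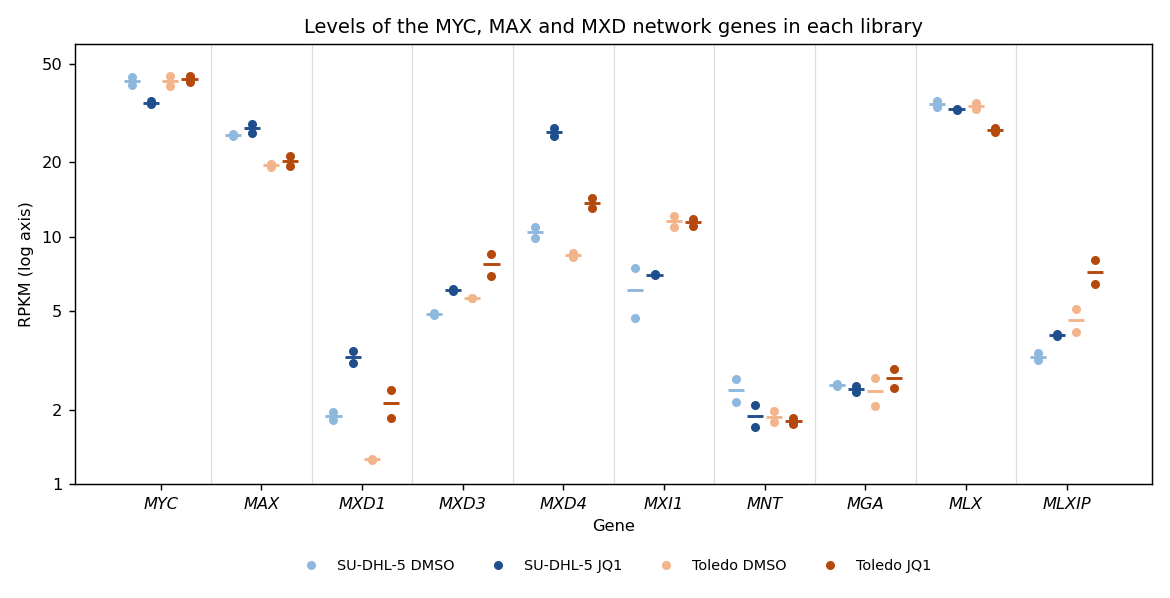
RPKM of the 10 network genes in each of the 8 libraries, on a log axis; points are libraries and short bars are the mean of the 2 libraries of a sample. By these gene values, MYC, MLX and MAX lie highest in each sample. MXD4 in SU-DHL-5 moves from 10.4 RPKM in DMSO to 26.5 in JQ1, next to the MAX gene value.

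By gene values, MYC was the most abundant member in all 4 samples. With transcript values summed per gene, MAX stood above MYC in both JQ1 libraries of SU-DHL-5. The SU-DHL-5 libraries of MYC gave 44.1 and 40.9 RPKM in DMSO against 35.2 and 34.4 in JQ1, with no overlap and JQ1 on the lower side. This gave a log2 ratio of -0.29 [-0.36 to -0.21], a level 0.819-fold that of DMSO, which did not reach the 1.5-fold needed for a call. In Toledo, MYC gave 40.5 and 44.4 RPKM in DMSO against 44.6 and 42.1 in JQ1. These libraries overlapped, and the ratio was 0.03 [-0.04 to 0.10]. The study itself reports lower MYC mRNA by qPCR under JQ1 in every line it examined, Toledo included. It reports the same for MYC protein by Western blot, after a longer time. The response of Toledo minus that of SU-DHL-5 was 0.32 [0.22 to 0.42] on the log2 scale, which exceeds counting error but has no replicate behind it. It was 0.46 from library 1 and 0.17 from library 2. In the absence of JQ1 the mean MYC level was 42.5 RPKM in SU-DHL-5 and 42.4 RPKM in Toledo, and the interval of the ratio [-0.07 to 0.07] holds 0.

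MAX, the partner that MYC and its antagonists share, was measured at 26.1 and 25.5 RPKM in the DMSO libraries of SU-DHL-5 and at 26.2 and 28.6 in its JQ1 libraries. The ratio was 0.09 [0.0017 to 0.16], with both JQ1 libraries above both DMSO libraries by a small margin, and it was 0.0059 from library 1 and 0.16 from library 2. In Toledo the DMSO libraries gave 19.1 and 19.7 RPKM and the JQ1 libraries 19.3 and 21.3, which overlap, with a ratio of 0.06 [-0.03 to 0.16]. MAX was lower in untreated Toledo than in untreated SU-DHL-5, at -0.41 [-0.50 to -0.32], without reaching 1.5-fold. By gene values, MYC was thus 1.65 times as abundant as MAX in SU-DHL-5 in DMSO and 1.27 times in JQ1, against 2.19 and 2.13 times in Toledo. The MAX gene value is scaled to 2886 exonic bases, whereas its main transcripts have 2013 and 2040. With transcript values summed per gene, MYC lay below MAX in SU-DHL-5 in JQ1, so these ratios depend on the values used.

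MXD4, a MAX partner and repressor, moved most of the members in SU-DHL-5. In SU-DHL-5 it stood at 11.0 and 9.83 RPKM in DMSO and at 27.4 and 25.5 in JQ1, a 2.53-fold rise with a log2 ratio of 1.34 [1.26 to 1.45]. In Toledo it stood at 8.58 and 8.26 RPKM in DMSO and at 13.0 and 14.3 in JQ1, a 1.61-fold rise with a log2 ratio of 0.69 [0.59 to 0.81]. The libraries of the treatments lay apart in both lines. The response of Toledo minus that of SU-DHL-5 was -0.65 [-0.79 to -0.50], beyond counting error. The deposited gene spans chr4:2247432-2262143 and has 1 transcript in the table, read by 1280 reads in the DMSO sample of SU-DHL-5 and 3113 in its JQ1 sample.

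MXD1, the founding member of the MXD family, was the least abundant member in both DMSO samples. It stood at 1.95 and 1.81 RPKM in SU-DHL-5 in DMSO and at 3.45 and 3.09 in JQ1, a 1.70-fold rise with a log2 ratio of 0.77 [0.61 to 1.00]. In Toledo it stood at 1.27 and 1.25 RPKM in DMSO and at 2.41 and 1.85 in JQ1, a 1.64-fold rise with a ratio of 0.71 [0.52 to 1.00]. Library 1 of each Toledo sample gave 0.87 and library 2 gave 0.53, the latter under the call. The response of Toledo minus that of SU-DHL-5 was -0.05 [-0.35 to 0.25], an interval that holds 0. At this level a pseudocount of 1 RPKM in place of 0.1 brought the ratios to 0.57 and 0.47, under the 1.5-fold needed for a call. MXD1 lies at chr2:69915041-69942945, and SNRNP27, a splicing factor gene on the same strand, shares 237 exonic bases with it. SNRNP27 gave 23.5 and 24.6 RPKM in the DMSO libraries of SU-DHL-5 and 33.8 and 34.3 in its JQ1 libraries, against 22.5 and 26.6 and then 25.5 and 25.1 in Toledo. The part of those reads in the MXD1 values was not tested.

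MXD3, another MXD repressor, lay above its DMSO libraries in both lines but under 1.5-fold. The SU-DHL-5 libraries gave 4.90 and 4.81 RPKM in DMSO against 6.02 and 6.13 in JQ1, a ratio of 0.32 [0.15 to 0.50]. The Toledo libraries gave 5.67 and 5.63 RPKM in DMSO against 6.94 and 8.55 in JQ1, a ratio of 0.45 [0.30 to 0.61]. That ratio was 0.29 from library 1 and 0.59 from library 2, the latter past 1.5-fold. Its exons (chr5:177305500-177312291) share 1158 bases with PRELID1 on the opposite strand, a mitochondrial lipid transfer gene that ran from 128 to 317 RPKM over the 8 libraries. They also share 926 bases with RAB24 on the same strand, at 7.30 to 9.75 RPKM. Whether reads were counted by strand is not given in the sources used here, so the MXD3 level is uncertain.

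MXI1, the remaining MXD-type repressor, did not separate by treatment in either line. In SU-DHL-5 its DMSO libraries disagreed, at 4.70 and 7.48 RPKM, and its JQ1 libraries gave 7.05 and 6.98. The gap between those DMSO libraries was 0.66 on the log2 scale, the only gap among the members past 1.5-fold. Over all genes, 0.844% showed such a gap between the DMSO libraries of SU-DHL-5, 0.391% between its JQ1 libraries, 1.34% between the DMSO libraries of Toledo and 0.502% between its JQ1 libraries. The SU-DHL-5 ratio of MXI1 was 0.20 from the means, 0.57 from library 1 of each sample and -0.10 from library 2. Toledo held 11.0 and 12.1 RPKM in DMSO against 11.8 and 11.0 in JQ1, a ratio of -0.01 [-0.12 to 0.10].

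MNT, the broadly expressed MAX partner that is thought to counter MYC in growing cells, was near the lower end of the order. SU-DHL-5 held 2.66 and 2.14 RPKM in DMSO against 2.09 and 1.70 in JQ1, a ratio of -0.33 [-0.55 to -0.10]. The JQ1 libraries lay below the DMSO libraries, but the nearest values, 2.14 and 2.09, were closer to each other than the libraries of either sample. In Toledo the values were 1.78 and 1.97 RPKM in DMSO against 1.85 and 1.75 in JQ1, which overlap, a ratio of -0.05 [-0.29 to 0.19].

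MGA, a very large protein that carries a T-box besides its MAX-binding part, showed little difference in SU-DHL-5. Its libraries gave 2.55 and 2.50 RPKM in DMSO against 2.50 and 2.36 in JQ1, a ratio of -0.06 [-0.18 to 0.07]. In Toledo they gave 2.07 and 2.69 RPKM in DMSO against 2.92 and 2.45 in JQ1, which overlap, with a ratio of 0.17 that was 0.48 from library 1 and -0.13 from library 2. MGA has the longest exons of the 10 genes, 12457 bases. Between the DMSO libraries of Toledo, the ratio of library 2 to library 1 went with exon length (Spearman's rho of 0.62 over 9467 genes of the same pair of libraries, a description), and MGA differed by 0.37 on the log2 scale between them.

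By gene values, MLX was the second most abundant member in all 4 samples. SU-DHL-5 held 35.3 and 33.5 RPKM in DMSO against 32.6 and 32.8 in JQ1, a ratio of -0.07 [-0.15 to 0.01]. Toledo held 34.7 and 32.7 RPKM in DMSO against 27.4 and 26.5 in JQ1, a ratio of -0.32 [-0.41 to -0.25]. The Toledo libraries lay apart, at 0.800-fold, without reaching a call, and the ratio was lower there than in SU-DHL-5 by more than counting error, with a difference of -0.25 [-0.36 to -0.14]. MLX (chr17:42567060-42573203) shares 770 exonic bases with PSMC3IP on the opposite strand, a meiotic recombination cofactor gene. PSMC3IP ran from 9.44 to 15.2 RPKM over the libraries, with the JQ1 libraries below the DMSO libraries in both lines, and its part in the MLX values was not tested.

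MLXIP, which pairs with MLX and turns on TXNIP when sugar is plentiful, rose in Toledo. Its libraries there gave 4.12 and 5.12 RPKM in DMSO against 8.02 and 6.42 in JQ1, a 1.55-fold rise with a ratio of 0.63 [0.53 to 0.77]. The libraries lay apart, but library 1 of each sample gave 0.94 and library 2 gave 0.32, the latter under the call. In SU-DHL-5 they gave 3.38 and 3.17 RPKM in DMSO against 3.95 and 4.04 in JQ1, which also lay apart, with a ratio of 0.28 [0.13 to 0.44]. From the means the response in Toledo was larger by 0.35 [0.16 to 0.55]. In SU-DHL-5 the libraries gave 0.22 and 0.34, so the difference was 0.73 from library 1 and -0.02 from library 2 and rested on library 1. MLXIP has 5782 exonic bases and its Toledo DMSO libraries differed by 0.31 on the log2 scale, in the direction of the length relation given for MGA. Between the JQ1 libraries of Toledo the rho with length was -0.275. There MLXIP differed by -0.32, MGA by -0.25 and MXD1, with 5617 exonic bases, by -0.36. Between the Toledo DMSO libraries MXD1 differed by -0.02. Centring on genes of like exon length gave Toledo ratios of 0.65 for MLXIP, 0.73 for MXD1 and 0.11 for MGA. Each stayed within the counting interval of its reported value. This centring was chosen after the data were seen, and the part of length was not tested beyond it. MLX was 7.30 times as abundant as MLXIP in Toledo in DMSO and 3.73 times in JQ1, against 10.5 and 8.19 times in SU-DHL-5.

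**Figure D2:**
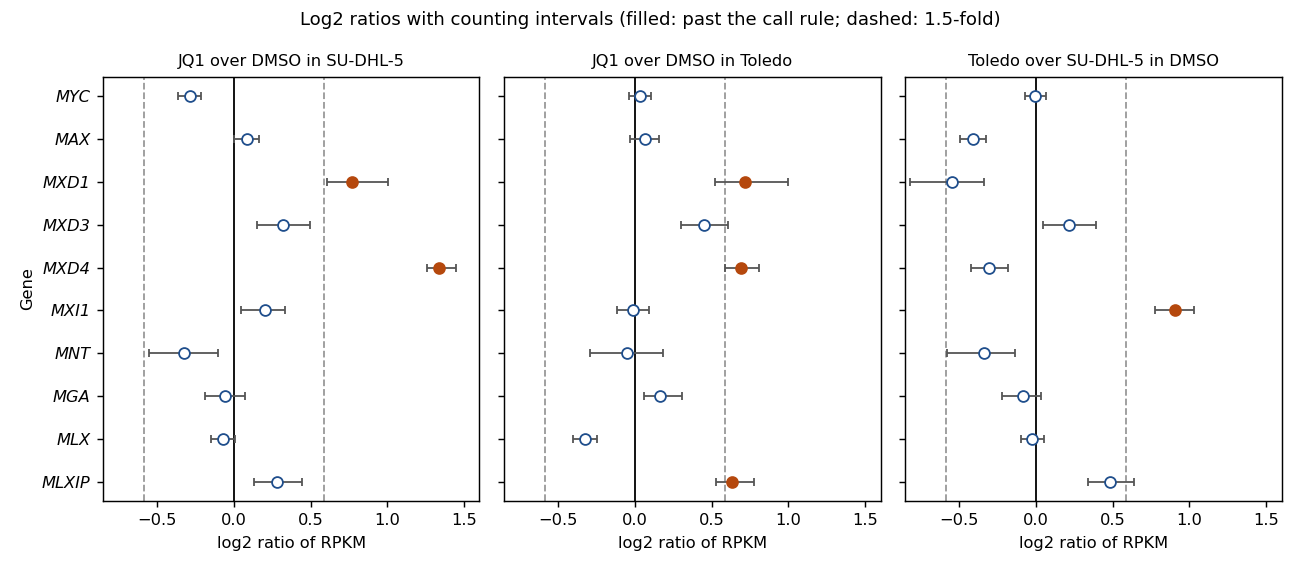
Log2 ratio of mean RPKM for each gene, from left to right JQ1 over DMSO in SU-DHL-5, JQ1 over DMSO in Toledo and Toledo over SU-DHL-5 in DMSO; bars are 95% counting intervals, filled points passed the call rule and dashed lines mark 1.5-fold. MXD1 and MXD4 are filled in both lines, MLXIP in Toledo and MXI1 between the lines, and no point lies beyond the lower dashed line.

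Between the untreated lines, MXI1 was the only member called, 1.88-fold higher in Toledo, a log2 ratio of 0.91 [0.78 to 1.03]. All genes were called higher in Toledo at 25.5% and lower at 23.7% of 9630 genes, so the 1 call among 10 genes is a smaller share than in the background. The MXI1 ratio was 1.20 from library 1 and 0.68 from library 2, and the low library of SU-DHL-5 was library 1. MXD1 at -0.54 [-0.82 to -0.34], MAX at -0.41, MNT at -0.34 [-0.58 to -0.13] and MXD4 at -0.30 [-0.42 to -0.18] were lower in Toledo with libraries apart and no call. MLXIP at 0.48 [0.34 to 0.64] and MXD3 at 0.22 [0.05 to 0.39] were higher in the same sense. The MLXIP ratio was 0.28 from library 1 and 0.68, past 1.5-fold, from library 2, and the MNT ratio was -0.56 and -0.11. MYC, MGA and MLX overlapped between the lines, with ratios of -0.0027, -0.08 and -0.03. Over all 9630 genes, the libraries lay apart with Toledo higher for 42.2% and lower for 42.3%, against 3 and 4 of the 10 members.

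The order of the 10 genes by gene value was nearly shared. In SU-DHL-5 in DMSO it ran MYC, MLX, MAX, MXD4, MXI1, MXD3, MLXIP, MGA, MNT and MXD1, from 42.5 to 1.88 RPKM. The libraries of MXI1 and MXD3, and those of MGA and MNT, overlapped there. In Toledo in DMSO, MXI1 stood above MXD4, the other places were the same, and no neighbours overlapped, from 42.4 to 1.26 RPKM. With JQ1, MXD4 came level with the MAX gene value in SU-DHL-5, at 26.5 and 27.4 RPKM with overlapping libraries. The summed MAX transcripts stood above MXD4 in both of those JQ1 libraries. In Toledo with JQ1, MXD4 stood above MXI1 at 13.7 and 11.4 RPKM. MXD1 moved above MGA and MNT in SU-DHL-5, whereas in Toledo it overlapped MNT at the bottom.

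The levels of MYC and its MAX-binding antagonists can be set against each other within a library, which needs no scaling between libraries. MYC divided by the sum of MXD1, MXD3, MXD4, MXI1, MNT and MGA was 1.51 in SU-DHL-5 in DMSO, with 1.59 and 1.43 in its libraries. In JQ1 it was 0.738, with 0.726 and 0.751. In Toledo it was 1.36 in DMSO, with 1.33 and 1.39, and 1.10 in JQ1, with 1.14 and 1.05. The libraries of the treatments lay apart in both lines, and the ratio crossed 1 in SU-DHL-5. With transcript values summed per gene it crossed 1 in Toledo as well, at 1.08 in DMSO and 0.869 in JQ1. That sum holds MXD3, whose level is uncertain and whose transcript values exceed its gene value. The summed antagonists moved from 28.2 to 47.1 RPKM in SU-DHL-5 and from 31.1 to 39.4 RPKM in Toledo. MXD4 carried most of that in SU-DHL-5, going from 7.76% to 18.1% of the summed RPKM of the 10 genes, while MYC went from 31.7% to 23.8%. In Toledo MXD4 went from 6.41% to 9.95% and MYC was at 32.3% and 31.6%. These are levels of transcripts and not of proteins or of pairs.

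**Figure D3:**
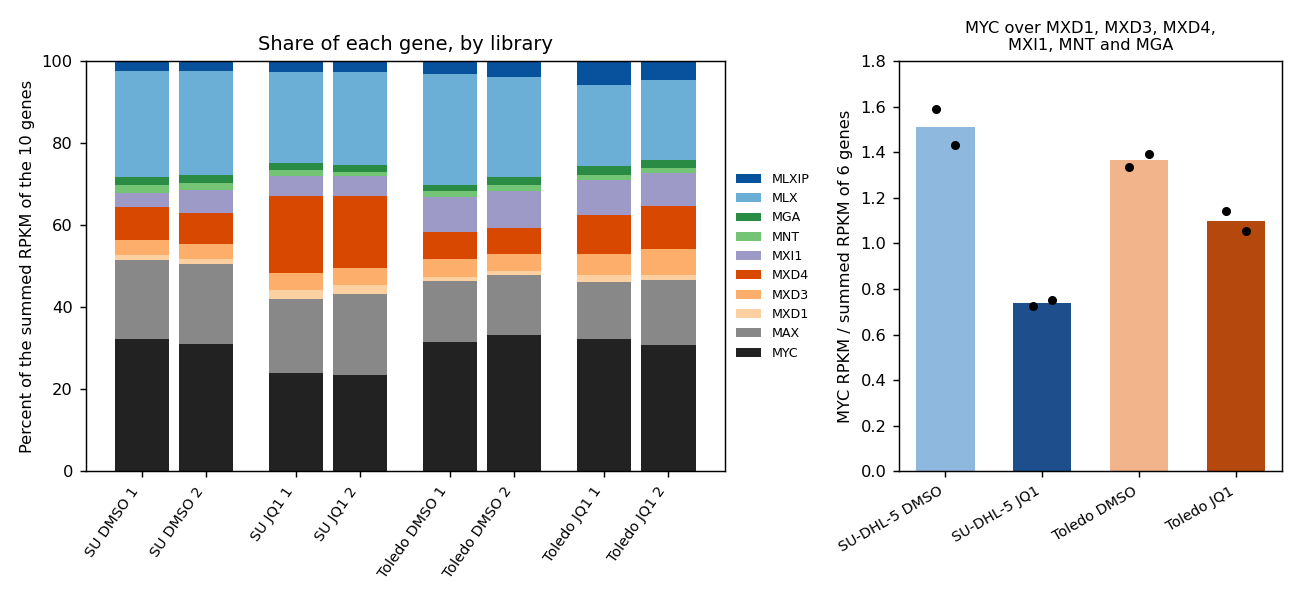
Left, each gene as a percent of the summed RPKM of the 10 genes in each library (SU stands for SU-DHL-5); right, MYC RPKM divided by the summed RPKM of 6 antagonists, with bars for the mean of a sample and points for its libraries. The MXD4 band is widest in SU-DHL-5 under JQ1, where the ratio on the right stands at 0.738.

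The transcript table listed 1 transcript each for MYC, MXD4 and MNT, and only 1 of 3 MXD1 transcripts had a value. For MXI1, the transcript from the upstream start (MXI1_1) and that from the downstream start (MXI1_3) behaved apart. MXI1_3 was at 1.65 and 1.58 RPKM in SU-DHL-5 in DMSO and 2.70 and 2.89 in JQ1, with libraries apart. The Toledo values were 6.60 and 6.27 RPKM in DMSO against 8.93 and 6.57 in JQ1, which overlap. MXI1_1 was at 3.38 and 6.77 RPKM in SU-DHL-5 in DMSO and 4.93 and 4.75 in JQ1, so the disagreement between the DMSO libraries lay in this transcript. Its Toledo values were 5.72 and 6.96 RPKM in DMSO against 4.08 and 5.63 in JQ1. All 4 Toledo values of MXI1_3 lay above the 4 of SU-DHL-5, whereas those of MXI1_1 overlapped.

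MAX has 7 transcripts in the table, and 2 of them, MAX_3 and MAX_4, carried most of its level. Their exon lengths, 2013 and 2040 bases, differ by 27 bases. MAX is known to be made with or without a short insert beside its DNA-binding part. MAX_3 was at 20.7 and 21.7 RPKM in SU-DHL-5 in DMSO and 23.1 and 24.4 in JQ1, and at 10.7 and 11.0 in Toledo in DMSO and 14.4 and 14.3 in JQ1. The values in Toledo were below all those in SU-DHL-5. MAX_4 was at 13.9 and 10.5 RPKM and then 11.4 and 13.7 in SU-DHL-5, and at 15.0 and 16.3 and then 12.3 and 14.7 in Toledo. MAX_3 was thus 54.3% of the summed MAX transcripts in SU-DHL-5 in DMSO and 38.7% in Toledo, where it was 49.1% in JQ1. The transcripts share nearly all their exons, and how the authors divided reads between them is not given in the sources used here, so the shares are uncertain.

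**Figure D4:**
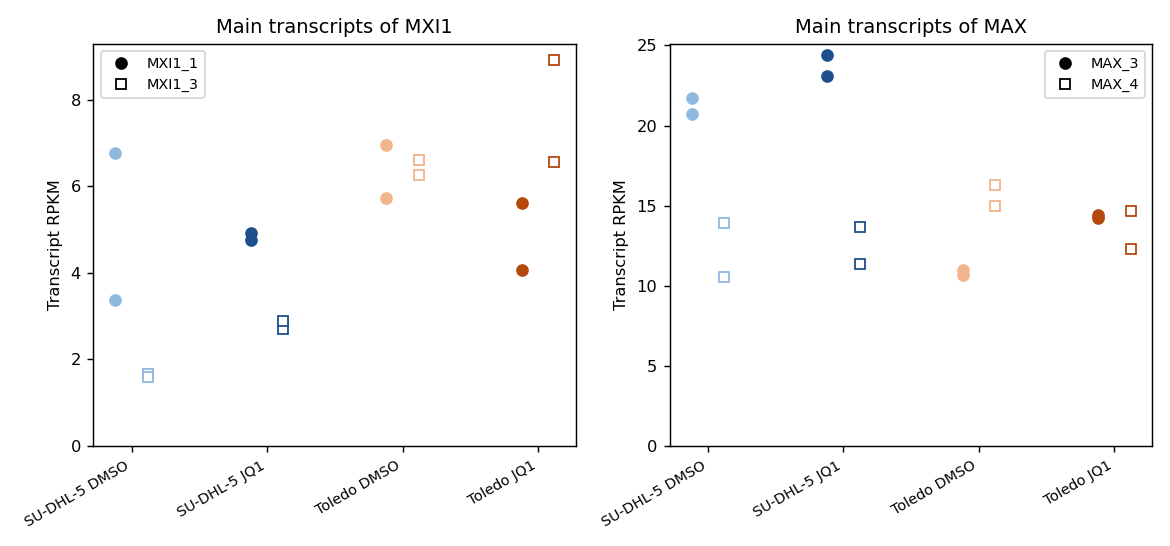
RPKM of the main transcripts of MXI1 (left) and MAX (right) in each library, with filled circles for the first named and open squares for the second. MXI1_3 lies between 6.27 and 8.93 RPKM in Toledo and at 2.89 or less in SU-DHL-5, and MAX_3 lies above MAX_4 in SU-DHL-5 in each library.

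MXD3_2 made up 87.3% of the MXD3 transcripts in SU-DHL-5 in DMSO and 90.8% in JQ1, and 95.2% and 96.1% in Toledo. SU-DHL-5 held 7.96 and 8.60 RPKM of it in DMSO against 10.8 and 11.3 in JQ1, and Toledo 11.3 and 11.1 RPKM against 14.0 and 17.1. MLX_2 made up 65.7% to 72.4% of the MLX transcripts over the libraries and MLX_3 most of the remainder, at 21.1% to 28.5%. MLXIP_1 was the main MLXIP transcript, at 58.9% to 96.1%. MLXIP_2 switched between 0% and 30.3% from library to library of SU-DHL-5, and MLXIP_4 reached 16.0% in 1 library. MGA_1, MGA_4, MGA_6, MGA_7, MGA_9 and MGA_16 each reached 10% of the MGA transcripts in some library, but MGA_6 was at 49.0% in 1 JQ1 library of SU-DHL-5 and at 0% in the other. No comparison of MGA or MLXIP transcripts was therefore made.

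The related genes left out of the network list were listed at or near 0. MYCN and MLXIPL were listed at 0 in all 8 libraries and MYCL was at most 0.286 RPKM. Of 12 other genes whose proteins bind E-boxes, 7 reached 1 RPKM in both lines, of which none was called higher. In SU-DHL-5, 3 were called lower, and in Toledo 4. Of the 8495 genes that reached 1 RPKM in both lines, 9.82% were called lower and 8.78% higher in SU-DHL-5, and 13.6% lower and 6.42% higher in Toledo. These shares are the background for this list and for those that follow. TFEB, the regulator of lysosome genes, was at -0.97 in SU-DHL-5 and at -1.02 in Toledo. TFAP4, a gene that MYC itself turns on, was at -1.04 and -0.83. USF1, the ubiquitous E-box factor, was at -0.06 and 0.10, and ARNT at 0.19 and 0.28. The median of the 7 was -0.36 in SU-DHL-5, beside -0.74 in Toledo.

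Of 14 MYC cofactors, 2 were called lower and 1 higher in SU-DHL-5, and 3 were called lower in Toledo, counts that with 14 genes stand close to the 9.82% and 13.6% of all genes called lower. The acetyltransferase genes KAT2A and KAT5 were lower in both, at -0.90 and -1.19 for KAT2A and -0.67 and -0.77 for KAT5. SKP1, a ubiquitin ligase subunit, was at 1.02 in SU-DHL-5 and at 0.52, under the call, in Toledo. None of the 10 corepressor genes that MXD and MNT proteins use, such as HDAC1 at -0.47 and -0.20 and NCOR1 at 0.36 and 0.05, was called in either line. Of 10 genes of the MGA complex, RYBP was called higher in both lines at 0.88 and 0.64, and L3MBTL2 lower at -0.91 and -0.90. PCGF6 was at -0.57 in SU-DHL-5 and was called lower in Toledo at -0.94. Of 15 genes that set the stability of the MYC protein, 4 were called higher in SU-DHL-5, and 1 higher and 1 lower in Toledo, beside 8.78% of all genes called higher in SU-DHL-5, and 6.42% higher and 13.6% lower in Toledo. GSK3B, the kinase that marks MYC for degradation, was higher in both at 0.95 and 0.67, and SKP2, a ligase subunit for MYC, was at -0.56 in SU-DHL-5 and called lower in Toledo at -0.62.

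Of 36 genes known to be activated by MYC, 34 reached 1 RPKM in both lines. In SU-DHL-5, 7 were called lower, and the Toledo counts were 7 lower and 1 higher, beside 9.82% and 13.6% of all genes called lower. Their median was -0.39 in SU-DHL-5 beside 0.04 for the 8495 genes that reached 1 RPKM in both lines, and -0.34 in Toledo beside -0.05. SLC19A1, the folate carrier, was at -1.54 and -1.46, and NME1, a nucleotide kinase, at -0.64 and -1.10. NPM1, the nucleolar chaperone, was at -0.01 and 0.14, and ODC1, which starts polyamine synthesis, was at 0.36 in SU-DHL-5 and called higher in Toledo at 0.72. In Toledo these values stood beside a MYC ratio of 0.03 in these libraries, unlike the study's own MYC measurements. Of 9 genes known to be repressed by MYC, 5 reached 1 RPKM in both lines. In SU-DHL-5, 2 were called higher and 1 lower, with a median of 0.39. In Toledo 1 was called higher and 1 lower, with a median of -0.0069. GADD45A, a stress response gene, was called higher in both at 0.74 and 0.93, and CDKN1A, which codes for the inhibitor p21, was called lower in both at -0.93 and -0.62. CDKN2C, a CDK4 and CDK6 inhibitor gene, was called higher in SU-DHL-5 at 0.60 and was at -0.15 in Toledo.

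Of the listed target genes of MLX and MLXIP, 1 of 2 reached 1 RPKM in both lines. TXNIP, an inhibitor of glucose uptake, was called higher at 1.01 in SU-DHL-5 and 0.74 in Toledo, with 12.6 and 14.5 RPKM becoming 29.7 and 25.2 in SU-DHL-5 and 38.1 and 43.5 becoming 70.4 and 66.1 in Toledo. ARRDC4, its relative, was called higher in SU-DHL-5 at 0.88, and 3 of the 4 Toledo libraries were listed at 0. These lists were chosen with results of these data known, so no list is set above another.

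**Figure D5:**
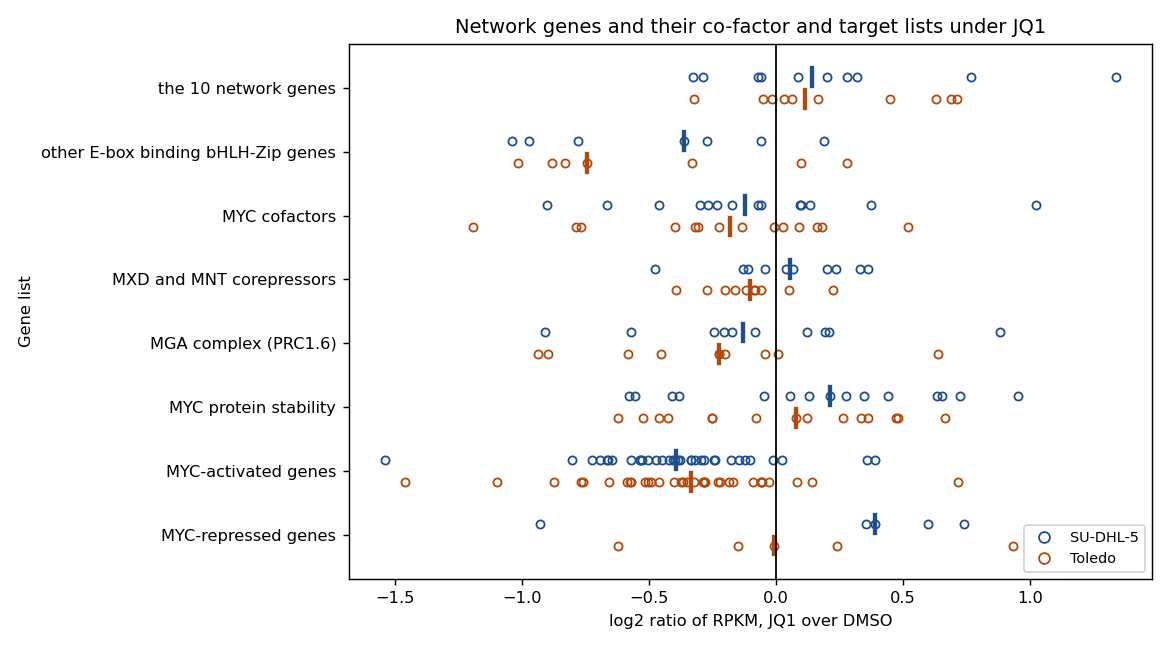
Log2 ratio of RPKM, JQ1 over DMSO, for the 10 network genes and for the listed partner and target genes that reached 1 RPKM in both lines; circles are genes, thick bars are medians, blue is SU-DHL-5 and orange is Toledo. The median of the MYC-activated genes is -0.39 in SU-DHL-5 against -0.34 in Toledo, and that of the network genes is 0.14 and 0.12.

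The genes whose pattern was most like that of MYC over the 4 samples, among 9520 genes of at least 1 RPKM, were RPAP1, ABCD4, RPGR, ARHGAP18 and REXO4. The measure was the Euclidean distance between log2 levels centred on each gene's own mean, and it ran from 0.047 for RPAP1 to 0.088 for REXO4. RPAP1, a factor for the assembly of RNA polymerase II, went from 8.32 to 6.86 RPKM in SU-DHL-5 and was at 8.03 and 8.37 in Toledo. For MXD1, the other member whose smaller ratio of the lines was largest, the nearest genes were TAF12, MYCBP2, TTC21B, MPP5 and C9orf16, at distances from 0.032 to 0.12. TAF12, a subunit of TFIID and SAGA, went from 25.8 to 44.4 RPKM in SU-DHL-5 with JQ1, and in Toledo from 17.7 to 28.5 RPKM. With 4 samples such a likeness is a description of levels.

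MYC itself lies at chr8:127736069-127741434, and its 1 listed transcript has 2366 exonic bases. Of 9 genes listed as lying beside it, 7 are in the gene table. Of these, PVT1, POU5F1B, CASC8, CASC11, CCAT1 and GSDMC were listed at 0 in all 8 libraries, and FAM84B was at most 0.0113 RPKM. Of the 41507 genes listed, 14944 had a value in any library, and the reason for the zeros was not tested. The libraries were made from mRNA, so transcripts without a poly(A) tail are not represented. MYC rested on 1189 to 1716 reads per library and MXD1 on 114 to 320.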

How the data were processed

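The RNA of 4 samples, SU-DHL-5 and Toledo in DMSO or JQ1, was sequenced by the authors in 2 libraries each, made with a stranded mRNA kit. The authors deposited a gene table and a transcript table, both in RPKM. The submitters' processing notes name CASAVA 2.0 and GRCh38 (hg38), and the aligner, the counting and the annotation are not given in the sources used here. RPKM is relative to the mapped reads of a library, so a change in total RNA per cell is not seen.

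Mapped reads per library and exon lengths were recovered from the steps of the deposited RPKM values: 14942 of 14944 genes with a value gave whole reads in all libraries, within 0.01 reads. With n = 1 per condition no test was run within a line. Over both lines, JQ1 was compared with DMSO by limma 3.58.1 (R 4.3.3, eBayes with a trend) on log2(mean RPKM + 0.1) of the 4 samples, with the cell line as a block because the labels pair the samples by line, and Benjamini-Hochberg adjustment over all genes of at least 1 RPKM. That fit was added after the data were seen. Reads served for intervals only, and the intervals cover counting error only. The recovery of reads, the call rule and the limma fit were tested on simulated data. Named genes were all 10 members, transcripts reaching 10% of a member, of each list the 2 highest and 2 lowest mean responses (some given by counts only) and the 5 nearest patterns. Other genes named to spell out 1 call in a list were named after their values were seen. The members and lists were chosen with earlier results of these data known. Alternatives changed the pseudocount, scaling, table, libraries, fold and length centring. The result for 1 gene of the marker lists is not reported here. Promoter windows came from RefSeq, and overlaps from GENCODE release 29. The tools were Python 3.11.15 with scipy 1.17.1, pandas 2.3.3, numpy 2.4.6 and, for figures, matplotlib 3.10.9.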

Additional observations from a re-analysis of the deposited data

How the results depend on the processing

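In the analysis over both lines, added after seeing the data, 2 of the 10 genes passed with the samples paired by line and 0 without the replicate block. Of 210 log2 ratios of single genes under alternatives, 185 stayed within the counting interval of the reported value, 25 moved beyond it and none that was called reversed. Of the 25, 10 came from library 1 alone, 10 from library 2 alone and 2 from a pseudocount of 1 RPKM. The other 3 came from centring on genes of like exon length, an alternative chosen after seeing the data. Among these, MYC in Toledo was at 0.14 in place of 0.03, and MLX in Toledo at -0.22 in place of -0.32. The last was MGA in SU-DHL-5, at -0.24 in place of -0.06. The count of called genes fell to 1 in SU-DHL-5 and to 1 in Toledo with a pseudocount of 1 RPKM. With a fold of at least 2 it was 1 in SU-DHL-5, 0 in Toledo and 0 between the untreated lines. The construction of that alternative shows the cause. With library 2 alone, the count in Toledo under JQ1 was 2 in place of 3, with MXD3 past the fold and MXD1 and MLXIP under it. The count between the untreated lines was then 2, with MLXIP added, and the median of the 10 genes in SU-DHL-5 was 0.068. With transcript values summed per gene, also chosen after seeing the data, MYC over its antagonists was 1.25 and 0.639 in SU-DHL-5 in DMSO and JQ1, and 1.08 and 0.869 in Toledo. Among the antagonists, MXD3_2 alone was at 7.96 and 8.60 RPKM in SU-DHL-5 in DMSO, against 4.90 and 4.81 for the MXD3 gene. In Toledo in DMSO it was at 11.3 and 11.1 RPKM, against 5.67 and 5.63. The cause of the shift was not tested, and the ratio was lower in JQ1 in both lines with either set of values. The scaling by the median ratio, 1.02 in SU-DHL-5 and 0.956 in Toledo, moved no member beyond its interval. The limits are 1 sample per condition, libraries of unknown kind and no depth beyond the recovered reads.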

Other observations

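Among the E-box factors outside the network, USF2 went lower in both lines with libraries apart, with 60.3 and 56.6 RPKM in DMSO against 35.0 and 33.1 in JQ1 in SU-DHL-5, and 46.0 and 44.3 RPKM against 23.0 and 26.0 in Toledo. BHLHE40, a transcriptional repressor of the circadian system, was called lower in Toledo at -0.74 and was at -0.36 in SU-DHL-5. PIM1 and PIM2, kinases that stabilise MYC, were called higher in SU-DHL-5 at 0.65 and 0.73, and were at 0.48 and 0.47, under 1.5-fold, in Toledo. HDAC2 was higher in untreated Toledo than in untreated SU-DHL-5 at 1.34, and HDAC1 was lower at -1.31. These genes were named after their values were seen.

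MAX_6 and MAX_7, short MAX transcripts that differ by 27 exonic bases, were at 1.42 RPKM or more and 0.876 RPKM or more in the SU-DHL-5 libraries, and at most 0.545 and 0.986 RPKM in the Toledo libraries. MAX_7 thus overlapped between the lines. These values rest on 0 to 56 reads per library, and the division of reads is as uncertain as for MAX_3 and MAX_4.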
